A study of Mus musculus with 20 samples.

Results

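Meningeal fibroblast genes are described here: Lum, Dcn, Ogn, Fmod, Slc13a4, Slc6a13, Slc22a6, Bmp7, Igf2 and Aldh1a2. The 10 genes were chosen by name, as markers of the fibroblasts of the meninges and the perivascular space other than collagens, out of 24528 genes in the table, and all 10 passed the filter on low values that left 17863 genes to be tested. RNA of hippocampus and neocortex from mice 18 months of age was sequenced in bulk, after removal of ribosomal RNA. TDP-43KQ/KQ mice (KQ) are homozygous for an acetylation-mimic change of lysine to glutamine in endogenous TDP-43, an RNA-binding protein of the nucleus, made with CRISPR/Cas9 in C57BL/6J zygotes, and TDP-43wt mice (WT) carry the unchanged gene. No transgene or Cre was involved, so that every cell of the KQ mice, fibroblasts included, carries the change. From how many founders the sequenced mice descend is not given in the sources used here. The hippocampus had 5 KQ libraries (3 female, 2 male) and 4 WT libraries (3 female, 1 male), and the neocortex 6 KQ libraries (3 female, 3 male) and 5 WT libraries (3 female, 2 male), and libraries are named by sex and number within their group. What was asked is whether these genes differed with genotype in each region, and with region in each genotype.

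Fibroblasts lie in the pia, arachnoid and dura around the brain, along its larger vessels, and in the stroma of the choroid plexus. They lay down a matrix of collagen and proteoglycans, carry transporters that move solutes between cerebrospinal fluid and tissue, and release signals such as retinoic acid, BMPs and IGF2 that act on the developing and adult brain. Other brain cells can express some of these genes too, and Igf2 and Slc13a4 are also expressed at the choroid plexus. In bulk samples more fibroblasts and more RNA per fibroblast cannot be told apart.

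The values are variance-stabilized (VST) values, which behave like log2 expression, and for every gene 0 is the mean of the neocortex KQ libraries. They carry neither sequencing depth nor the level of a gene, so that genes cannot be ranked by expression, and for low genes differences on this scale understate the fold change. Of known hippocampal genes 8 of 10 were called higher in the hippocampus in KQ mice and 8 of 10 in WT mice, and of neocortical ones 10 of 12 were called lower there in each. The other 2 neocortical genes, Tshz2 (0.95 in KQ mice, 1.16 in WT mice) and Fezf2 (0.28 and 0.48), were called higher in the hippocampus, against the labels. Sex and litter had been removed from the values before deposit, jointly over both regions, and this ties libraries together. Neocortex WT male 1, alone in its litter, lay at its group mean in every gene, and the hippocampus and neocortex libraries of KQ female 2, the only 2 of their litter, deviated from their group means by equal and opposite amounts (to within 4.08e-08). The 3 libraries of another litter, both WT female 3 libraries and neocortex KQ male 1, deviated by amounts that sum to 0, as do the deviations within each other litter. A low value in one such library thus comes with a high one in the other. SDs within groups hold no sex or litter difference common to all groups, but may hold those particular to a region or genotype. Values by library, correlations and permutation tests are approximate for these reasons. The limma fits include sex and litter again, which leaves 11 residual degrees of freedom.

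In the hippocampus all 10 genes had higher means in KQ than in WT mice, with a median log2 fold change of 0.51 against -0.00105 over all genes tested. Lum was the member that passed the test. The hippocampal marker genes leaned the other way. Their mean was 1.37 to 1.83 in the 5 hippocampus KQ libraries and 1.84 to 1.94 in the 4 WT libraries, ranges that nearly meet. Of the 10 markers 9 were negative by genotype (median -0.231), with Lct at -0.45 and C1ql2 at -0.46. Of these 10, 0 were called and 3 had an unadjusted p under 0.05 (limma). Of 12 neocortical markers 10 were negative in the hippocampus too (median -0.133), with 0 called and 2 at an unadjusted p under 0.05 (limma). Over all 17863 genes tested, 2650 had such a p by genotype in the hippocampus and 2581 in the neocortex, in either direction. Counts of this kind in the gene lists are to be read against these. The part of the hippocampal and neocortical markers in the differences of the members was not tested. In the neocortex the median of the members was 0.094 and no member passed. Between the regions, Lum and Dcn were higher in the hippocampus in both genotypes, and Ogn, Slc13a4 and Igf2 were higher there in KQ mice.

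**Figure D1:**
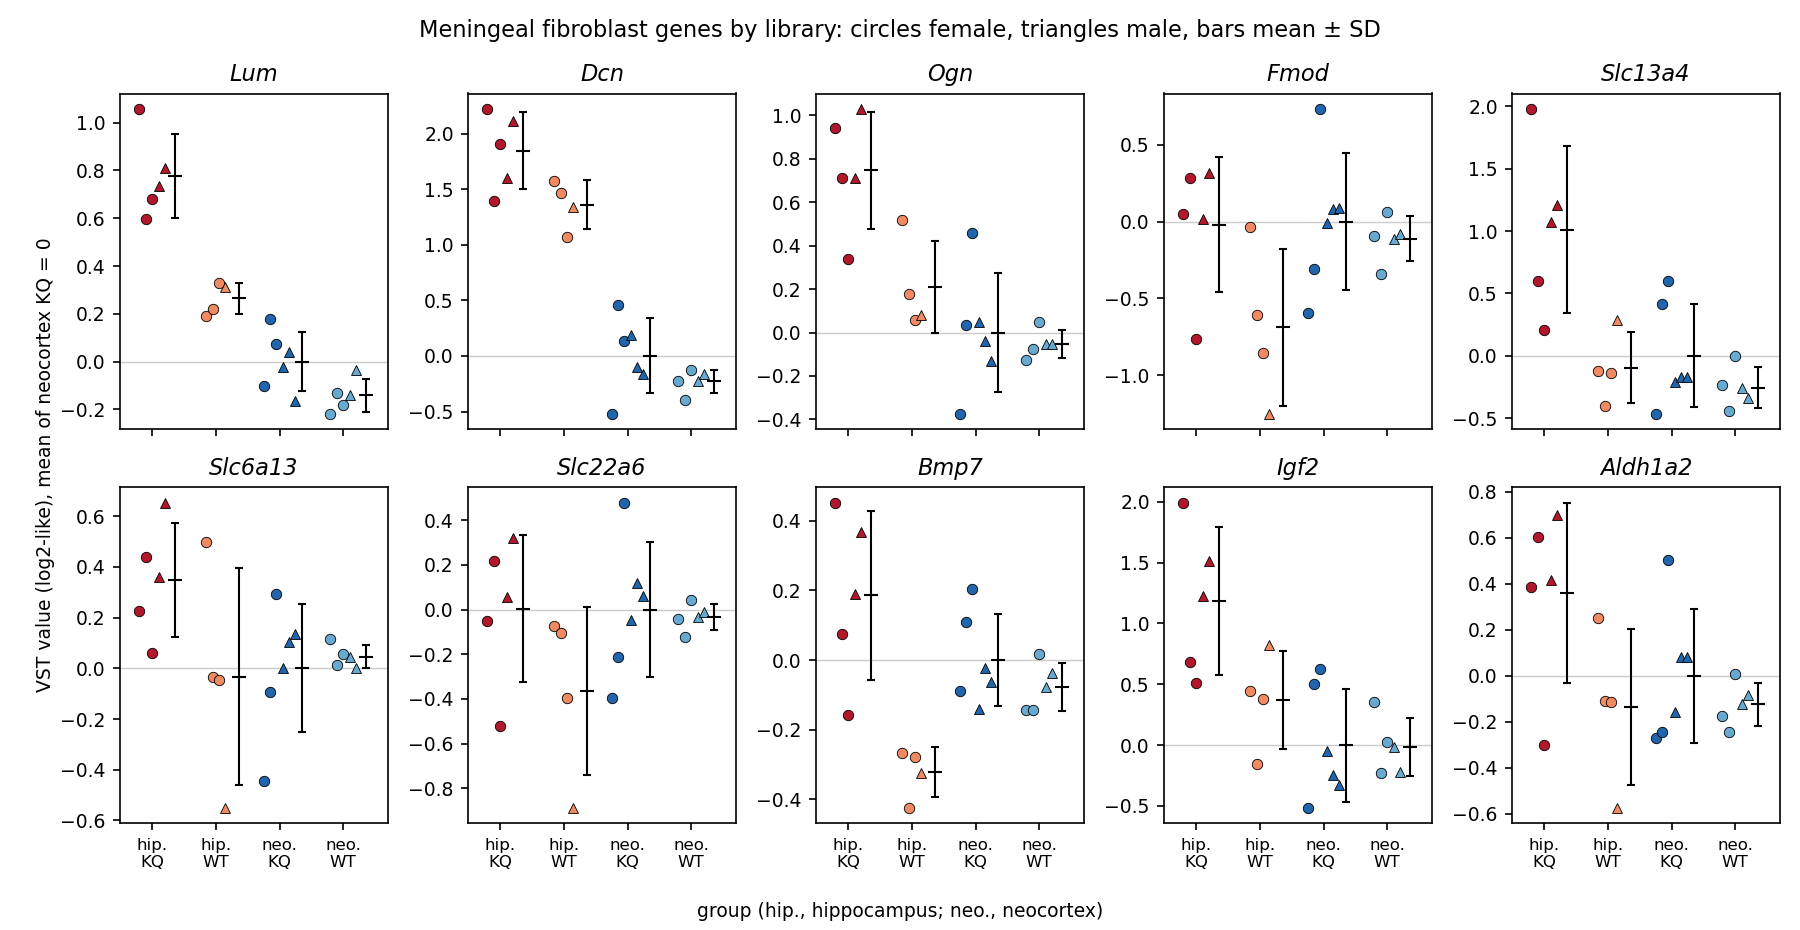
VST values (log2-like, vertical axis) of the 10 genes in each library of the 4 groups (horizontal axis), with KQ libraries left of WT libraries of the same region; circles are females, triangles males, and bars the mean and SD. Hippocampus KQ and WT libraries do not overlap for Lum and Bmp7 and overlap for the other 8, and Dcn separates the regions in both genotypes.

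In the RefSeq annotation of GRCm38.p6 (mm10), Lum (chromosome 10, 97565501 to 97572703) and Dcn (chromosome 10, 97479500 to 97518163) are neighbours 47.3 kb apart, in a cluster that also holds Kera and Epyc. Ogn (chromosome 13, 49608015 to 49624501) lies 15.4 kb from Omd and 40.5 kb from Aspn, and Fmod (chromosome 1, 134037254 to 134048280) 107 kb from Prelp. The transporters are on chromosome 6 (Slc13a4, 35267953 to 35308126, and Slc6a13, 121300288 to 121337721) and chromosome 19 (Slc22a6, 8617996 to 8628299). Bmp7 is on chromosome 2 (172868012 to 172940321), Aldh1a2 on chromosome 9 (71215789 to 71296243) and Igf2 on chromosome 7 (142650768 to 142666816). Igf2 overlaps its antisense gene Igf2os (142659680 to 142670356), and since use of the strand in quantification is not given in the sources used here, reads of the overlap may count for either.

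The promoters of the members were searched for short motifs, from 250 bases before to 50 bases after the start, from RefSeq on GRCm38.p6. Whether they bear on the variation of the members was not tested. Windows were found for 7 members (12 windows, since Slc6a13 has 3 starts and Igf2 has 4); Lum, Dcn and Bmp7 were not matched. The windows with the letters CAGATG, an E-box of the kind bound by TWIST1, a transcription factor of mesenchymal cells, were chosen after the matches were seen and are printed here, with that match in capitals (CATCTG is the same on the other strand). They belong to Slc13a4 (chr6:35308077-35308376, minus strand, match at -152 from the start), Fmod (chr1:134037004-134037303, plus strand, match at -189) and Slc22a6 (chr19:8617746-8618045, plus strand, match at -173).
Slc13a4: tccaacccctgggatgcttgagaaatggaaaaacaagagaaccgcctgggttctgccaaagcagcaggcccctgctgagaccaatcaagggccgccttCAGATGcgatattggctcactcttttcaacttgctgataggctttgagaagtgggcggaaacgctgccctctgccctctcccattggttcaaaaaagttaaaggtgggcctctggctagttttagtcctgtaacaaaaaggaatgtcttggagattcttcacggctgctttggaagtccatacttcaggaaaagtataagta
Fmod: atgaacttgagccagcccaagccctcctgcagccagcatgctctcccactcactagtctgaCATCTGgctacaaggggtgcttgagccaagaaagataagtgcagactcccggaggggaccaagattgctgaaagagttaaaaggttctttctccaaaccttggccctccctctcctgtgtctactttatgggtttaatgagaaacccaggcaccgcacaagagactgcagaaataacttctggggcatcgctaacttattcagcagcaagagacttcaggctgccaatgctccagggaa
Slc22a6: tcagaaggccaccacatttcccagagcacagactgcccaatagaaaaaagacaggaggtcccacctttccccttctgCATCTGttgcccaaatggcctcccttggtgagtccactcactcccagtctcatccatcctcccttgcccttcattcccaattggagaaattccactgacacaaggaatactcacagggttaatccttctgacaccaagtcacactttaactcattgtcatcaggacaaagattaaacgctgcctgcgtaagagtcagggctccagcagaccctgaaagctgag
CAGATG or CATCTG stood in 3 of the 12 member windows and in 17.2% of all 32851 windows. Of other motifs searched on both strands, the SMAD letters CAGAC stood in 7 of 12 (4 members, 49.6% of all windows), the forkhead letters GTAAACA in 0 of 12 (3.65%) and the TATA letters TATAAA in 1 of 12 (Ogn, 13.6%); a match is a description of these letters and not a site. The window of Aldh1a2 held 50 CpG dinucleotides, a number reached by 0.855% of all windows, against 2 to 24 in those of the other members matched.

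Lum, Dcn, Ogn and Fmod encode small leucine-rich proteoglycans, which bind collagen and set the width and spacing of its fibrils. Lumican (Lum), a keratan sulfate proteoglycan, was 1.06, 0.60, 0.68, 0.73 and 0.81 in the hippocampus of KQ females 1, 2 and 3 and males 1 and 2, against 0.19, 0.22, 0.33 and 0.31 in WT females 1, 2 and 3 and male 1. Every KQ library was above every WT library, and KQ female 1 was the highest. Lum was higher in KQ mice by 0.51 ± 0.098 (log2 fold change ± SE, 1.42-fold; limma, Benjamini-Hochberg adjusted p = 0.0364 over all genes), and its p ranked 51 of 17863. Of all genes 0.14% were called higher in KQ mice in the hippocampus, against 1 of the 10 members. An exact permutation test of the genotype labels gave p = 0.00794, the smallest that 5 against 4 libraries allow (two-sided; 0.159 after adjustment over 20 such tests).

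The call for Lum held in 15 of 30 alternatives (limma), 6 of 10 other fits and 9 of 20 omissions of a library. Its direction held in all. Among the 6 are the fits with no sex and litter, sex alone or litter as a random effect, whose p-values are too small. The call ended with the replicate block, a term for sex and number (0.50, adjusted p = 0.079), and in the hippocampus libraries alone (0.65, adjusted p = 0.178). These fits left 8 and 3 residual degrees of freedom, against 11 in the main fit. The call also ended with a random effect for the mouse of the female libraries (0.49, adjusted p = 0.0696), and without any 1 of 11 of the 20 libraries. These were hippocampus KQ female 1 (0.36, adjusted p = 0.227), KQ males 1 and 2 and all 4 WT libraries, and neocortex KQ male 2 and WT females 1, 2 and 3 (adjusted p 0.0527 to 0.137 for the 10 other than KQ female 1).

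Decorin (Dcn), which besides binding collagen sequesters TGF-beta, was 2.22, 1.39, 1.91, 1.60 and 2.11 in hippocampus KQ females 1, 2 and 3 and males 1 and 2, and 1.58, 1.46, 1.07 and 1.342 in WT females 1, 2 and 3 and male 1. KQ female 2 was within the WT range and the other KQ libraries above it. The difference was 0.48 ± 0.22 (adjusted p = 0.316). Osteoglycin (Ogn) was 0.94, 0.71, 0.34, 0.71 and 1.03 in the KQ libraries in the same order and 0.52, 0.18, 0.06 and 0.08 in the WT libraries. Of the KQ libraries, female 3 alone was below the highest WT library, female 1, and the difference was 0.54 ± 0.18 (adjusted p = 0.191). Fibromodulin (Fmod) was 0.05, 0.29, -0.76, 0.01 and 0.32 in the KQ libraries and -0.03, -0.61, -0.86 and -1.25 in the WT libraries, again with KQ female 3 low and WT female 1 high, and a difference of 0.67 ± 0.31 (adjusted p = 0.336). In the neocortex the 4 proteoglycan genes differed by 0.05 to 0.23 (adjusted p 0.469 to 0.906) and their KQ and WT ranges overlapped: Lum ran from -0.16 (median 0.01) to 0.18 in KQ mice and was -0.22, -0.13, -0.18, -0.14 and -0.03 in WT females 1, 2 and 3 and males 1 and 2.

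The other leucine-rich proteoglycan genes were read as a list of 13, of which 12 were tested, and none was called in the hippocampus by genotype. By sign, 9 of 12 were positive with a median of 0.162, and 7 had an unadjusted p under 0.05 (limma), led by Podn (0.26 ± 0.080, adjusted p = 0.184) and Bgn, which encodes biglycan (0.34 ± 0.11, adjusted p = 0.211), both named after their values were seen. By region in KQ mice 5 of the 12 were called higher in the hippocampus, against 17.2% of all genes, among them Prelp (0.98) and Ecm2 (0.81). In WT mice 3 of the 12 were called higher there, against 13.5% of all genes, again with Prelp (0.72) and Ecm2 (0.66).

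Slc13a4, Slc6a13 and Slc22a6 encode transporters of the arachnoid and pia. Slc13a4, a sodium-coupled sulfate transporter also made in the choroid plexus, had the largest difference of the members in the hippocampus. It was 1.98, 0.60, 0.21, 1.07 and 1.21 in KQ females 1, 2 and 3 and males 1 and 2, against -0.12, -0.40, -0.14 and 0.28 in WT females 1, 2 and 3 and male 1. All KQ libraries but female 3 were above every WT library, yet the KQ libraries spread over more than the distance between the groups, and 1.11 ± 0.33 did not pass (adjusted p = 0.171). Without KQ female 3 Slc13a4 was called (1.39, adjusted p = 0.0411), and without KQ female 1 it was at its lowest (0.58).

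Slc6a13, the GABA and taurine transporter GAT2, was 0.23, 0.44, 0.06, 0.36 and 0.65 in those KQ libraries and 0.50, -0.03, -0.05 and -0.55 in the WT libraries. WT female 1 lay among the KQ libraries and the groups overlapped (0.38 ± 0.20, adjusted p = 0.397). Slc22a6, the organic anion transporter OAT1, was -0.05, 0.22, -0.52, 0.06 and 0.32 in the KQ libraries and -0.07, -0.11, -0.39 and -0.89 in the WT libraries, with KQ female 3 inside the WT range (0.37 ± 0.22, adjusted p = 0.457). In the neocortex the differences were 0.26 ± 0.31 for Slc13a4, -0.05 ± 0.19 for Slc6a13 and 0.03 ± 0.21 for Slc22a6 (adjusted p 0.718, 0.931 and 0.956). Among 14 related transporter genes none was called by genotype in the hippocampus, and 12 were positive with a median of 0.132. Of the 14, 3 had an unadjusted p under 0.05 (limma), against 2650 of all 17863 genes.

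Bmp7 and Igf2 encode secreted signals and Aldh1a2 the enzyme that makes retinoic acid in the meninges. Bmp7, a bone morphogenetic protein, was 0.45, 0.08, -0.16, 0.19 and 0.37 in hippocampus KQ females 1, 2 and 3 and males 1 and 2, and -0.27, -0.42, -0.28 and -0.32 in WT females 1, 2 and 3 and male 1. The groups did not overlap, but the difference of 0.51 ± 0.12 missed the threshold (adjusted p = 0.0779, rank 153). It was called without hippocampus KQ female 3 (0.63) and without neocortex KQ male 1 (0.56). Lum and Bmp7 were thus 2 of 10 members with every KQ library above every WT library, which held for 4.19% of all genes in the hippocampus. In the neocortex it held for 0 of 10 members and 4.29% of all genes.

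Igf2, an imprinted growth factor of the meninges and the choroid plexus, was 1.99, 0.68, 0.51, 1.22 and 1.51 in hippocampus KQ females 1, 2 and 3 and males 1 and 2, against 0.45, -0.16, 0.38 and 0.82 in WT females 1, 2 and 3 and male 1. WT male 1 was above KQ females 2 and 3 (0.81 ± 0.35, adjusted p = 0.302). Aldh1a2 was 0.39, 0.60, -0.30, 0.42 and 0.70 in those KQ libraries and 0.25, -0.11, -0.11 and -0.57 in the WT libraries, and KQ female 3 was again among the WT libraries (0.50 ± 0.23, adjusted p = 0.333). In the neocortex the 3 genes differed by 0.08 ± 0.11, 0.02 ± 0.33 and 0.12 ± 0.22 (Bmp7, Igf2 and Aldh1a2, adjusted p 0.764, 0.986 and 0.811). Genes of the pathways of these signals had medians nearer 0. Of 22 other BMP pathway genes 14 were positive in the hippocampus (median 0.0551), of 18 retinoic acid pathway genes 10 (0.0363) and of 11 IGF pathway genes 8 (0.014), and none was called (7, 5 and 2 at an unadjusted p under 0.05 by limma). Such a p was found for 2650 of all 17863 genes there.

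Over the 10 members, 8 had an unadjusted p under 0.05 and a higher mean in the hippocampus of KQ mice, all but Slc6a13 and Slc22a6, against 7.19% of all genes. All 10 were positive, against 49.6% of all genes. Many of the 10 genes varied together across libraries, so that they do not count as 10 separate observations. In the neocortex 9 of 10 were positive (49.3% of all genes) and 0 were called or had an unadjusted p under 0.05 by limma. Of all genes 0.106% were called higher in KQ mice there. By the exact permutation test Lum had the lowest p of the members in the neocortex, 0.0498 (0.198 after adjustment over 20 tests). The 95% intervals there were wide, from -0.41 to 0.92 for Slc13a4 and from -0.68 to 0.71 for Igf2. Those of Dcn, Aldh1a2, Slc22a6 and Fmod (upper bounds 0.66, 0.58, 0.48 and 0.74) took in the difference measured in the hippocampus, and those of the other members ended below it.

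The difference of the genotype effect between the regions (hippocampus minus neocortex) was positive for all 10 members, with a median of 0.43, and passed for none (limma; lowest adjusted p 0.783). It passed for 0% of all genes too, 1041 of which had an unadjusted p under 0.05. The members with an unadjusted p under 0.05 were Lum (0.37 ± 0.12, adjusted p = 0.783), Bmp7 (0.43 ± 0.15, adjusted p = 0.789) and Ogn (0.49 ± 0.22, also not past the threshold). A larger effect in the hippocampus was therefore not shown for any of them.

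**Figure D2:**
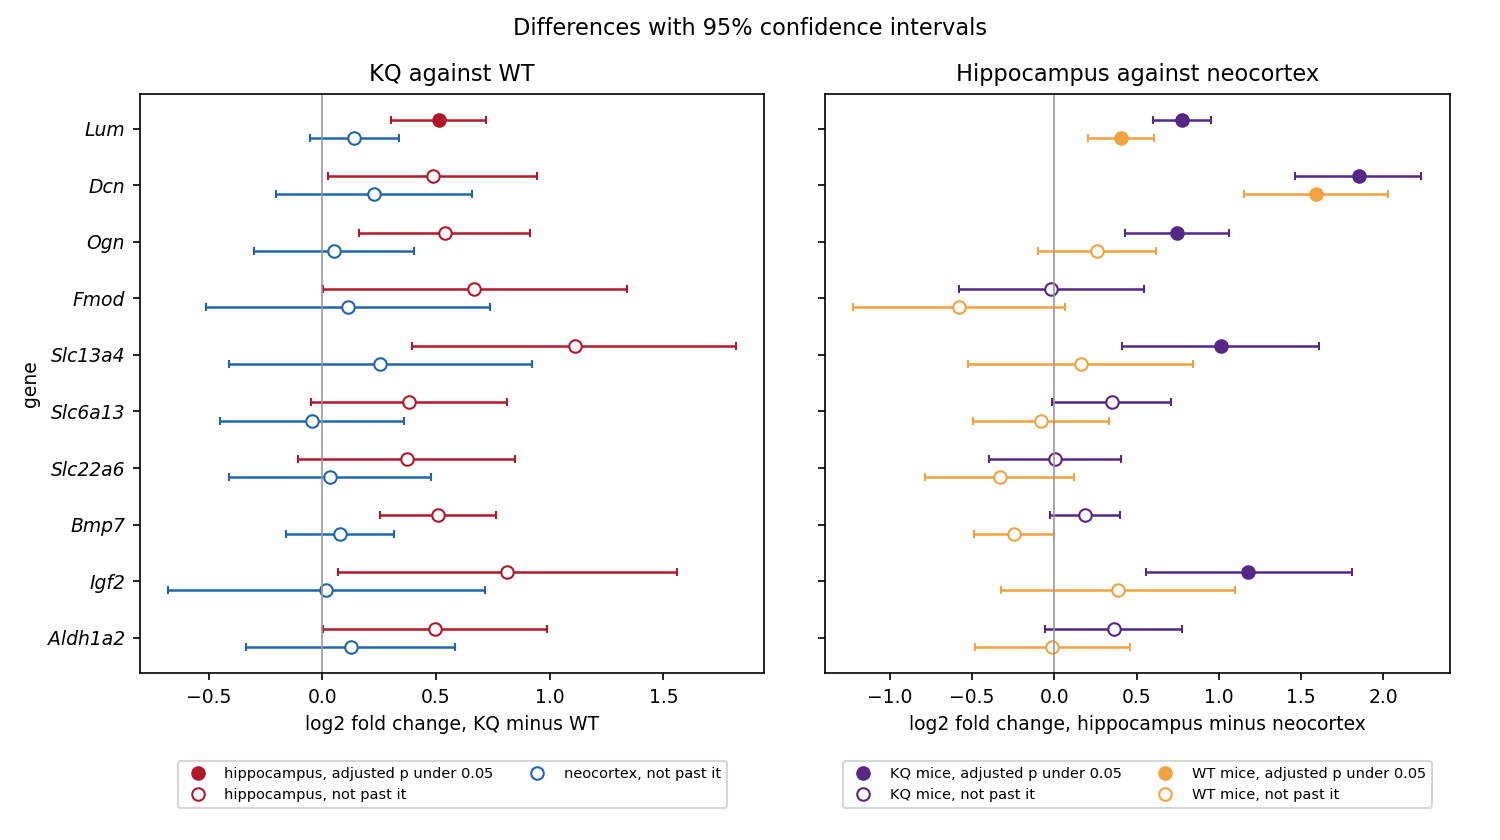
Log2 fold changes (horizontal axis) of the 10 genes (vertical axis), with 95% confidence intervals, for KQ minus WT in each region (left) and hippocampus minus neocortex in each genotype (right); filled points passed an adjusted p of 0.05. Left, Lum in the hippocampus is the filled point and all hippocampus points are right of 0; right, 5 genes are filled in KQ mice and 2 in WT mice.

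Dcn had the largest difference between regions of the members. In KQ mice the hippocampus libraries of Dcn ran from 1.39 to 2.22 and the neocortex libraries from -0.52 to 0.46, and in WT mice from 1.07 to 1.58 and from -0.39 to -0.13. No hippocampus library of either genotype overlapped a neocortex one. Dcn was higher in the hippocampus by 1.85 ± 0.18 in KQ mice (3.60-fold, adjusted p = 1.36e-06) and by 1.59 ± 0.21 in WT mice (3.01-fold, adjusted p = 3.04e-05). Lum was higher there by 0.78 ± 0.082 in KQ mice (adjusted p = 2.96e-06) and by 0.41 ± 0.094 in WT mice (adjusted p = 0.00434). Both calls held in both genotypes under all 29 alternatives.

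Ogn, Slc13a4 and Igf2 were higher in the hippocampus in KQ mice, by 0.75 ± 0.15, 1.01 ± 0.28 and 1.18 ± 0.29 (adjusted p = 0.00106, 0.0111 and 0.00543), and by 0.26 ± 0.17, 0.16 ± 0.32 and 0.39 ± 0.33 in WT mice (adjusted p 0.273, 0.748 and 0.417), differences that did not pass. Whether the region difference itself differed between the genotypes is the same contrast as that of the genotype effect between regions, which passed for none of them. That makes 5 of 10 members called higher in the hippocampus in KQ mice, against 17.2% of all genes, and 2 of 10 in WT mice, against 13.5%. The remaining 5 members were not called in either genotype. Fmod had a region difference of -0.02 ± 0.26 in KQ mice and -0.58 ± 0.30 in WT mice, Slc22a6 of 0.00 ± 0.19 and -0.33 ± 0.21, and Bmp7 of 0.19 ± 0.10 and -0.25 ± 0.11. Bmp7 was called lower in the hippocampus of WT mice in 5 of 29 alternatives. The genotype and region comparisons share their libraries, and the higher KQ means in the hippocampus enter both.

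Across libraries the members split into sets with different patterns. Slc6a13, Aldh1a2, Slc22a6 and Fmod followed each other most closely: over 20 libraries, the deviations from the group means correlated with r of 0.853 to 0.96 between the 6 pairs (0.876 to 0.971 in the hippocampus, 0.795 to 0.987 in the neocortex). Lum, Slc13a4, Bmp7 and Igf2 made another set, with r of 0.689 to 0.939 (0.739 to 0.966 in the hippocampus, 0.503 to 0.901 in the neocortex). Between the sets r was -0.114 to 0.607 with a median of 0.249, and the median was 0.0993 in the hippocampus and 0.519 in the neocortex. Ogn followed the first set (0.728 to 0.857) and less closely the other (0.397 to 0.764), while Dcn followed the set of Lum (0.45 to 0.605) and hardly the first (0.081 to 0.262). The sets were drawn after the values were seen, the points share libraries and the ties left by the removal of sex and litter, and the correlations are a description.

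**Figure D3:**
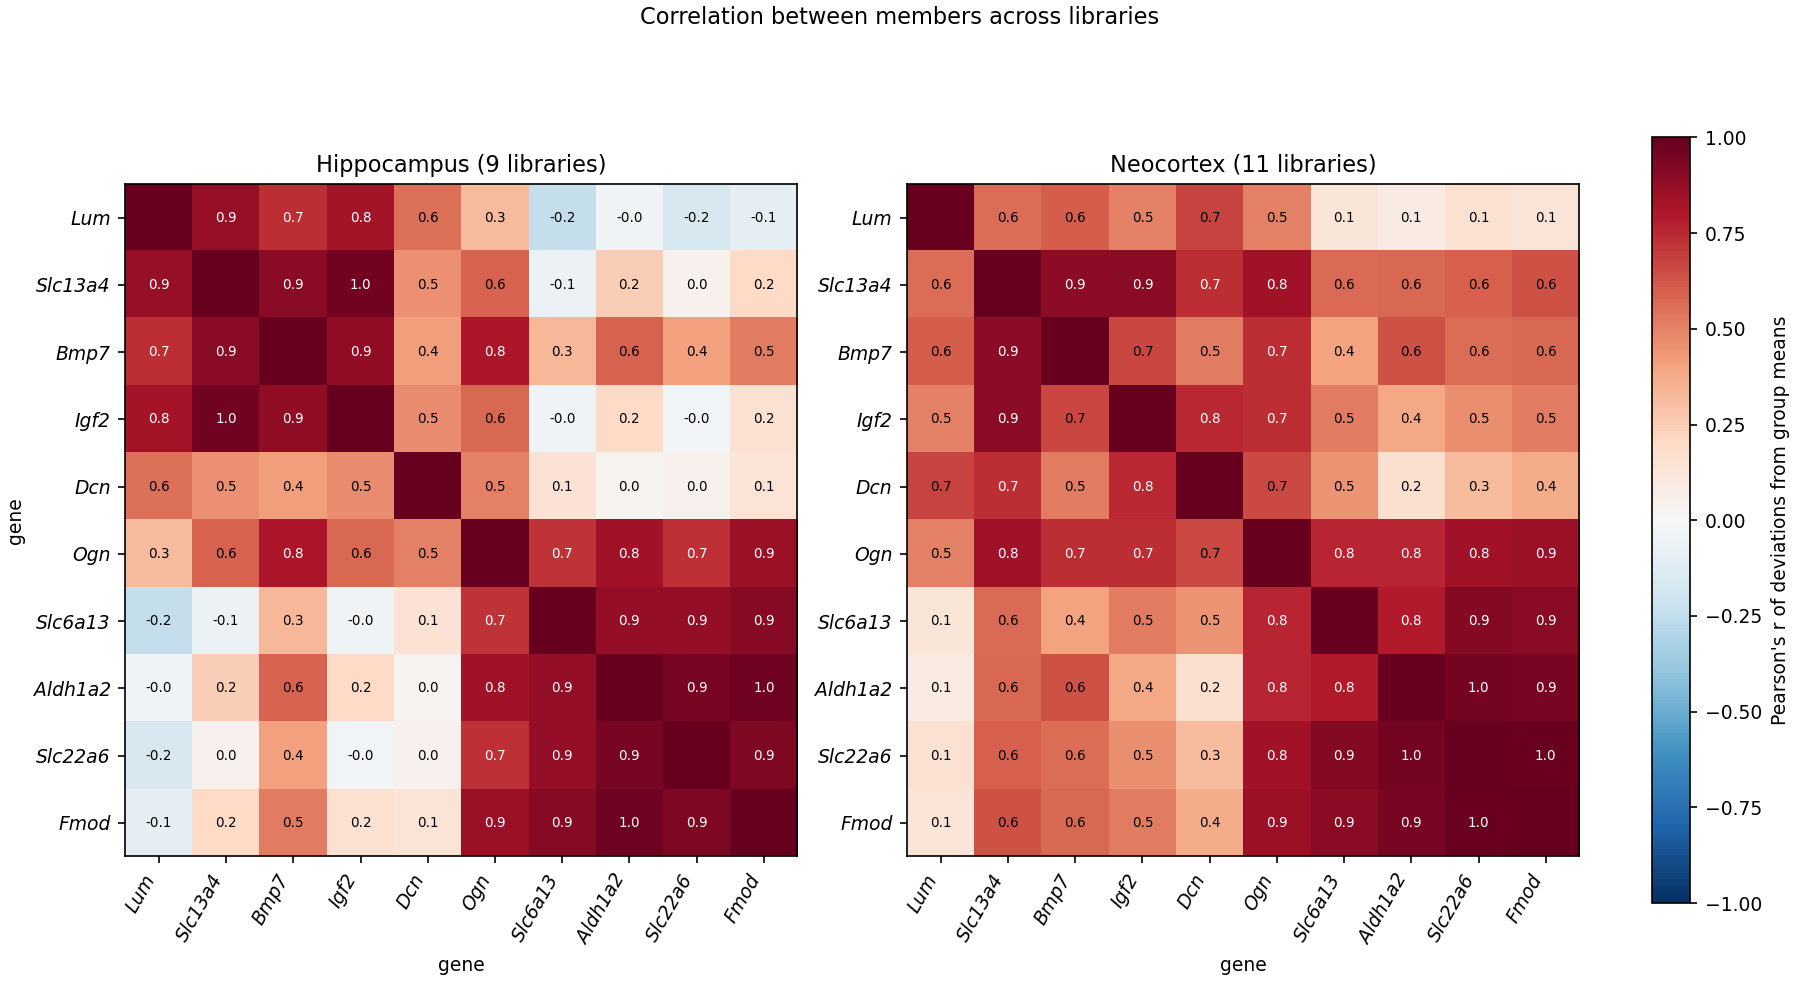
Pearson's r between the deviations of each pair of genes (both axes) from the group means, over 9 hippocampus libraries (left) and 11 neocortex libraries (right), from -1 (blue) to 1 (red). A block of Slc6a13, Aldh1a2, Slc22a6 and Fmod stands out in both regions, and in the hippocampus its r with Lum, Slc13a4 and Igf2 is between -0.242 and 0.243.

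The libraries at the extremes differed between the sets. In the hippocampus KQ group, female 1 was the highest library in 5 members (Lum, Dcn, Slc13a4, Bmp7 and Igf2) and male 2 in the other 5 (Ogn, Slc6a13, Aldh1a2, Slc22a6 and Fmod), while female 3 was the lowest in 8, all but Lum and Dcn. In the WT group female 1 was the highest in 7 members. In the neocortex KQ group female 3 was the highest in 8 members and female 1 the lowest in 8. KQ female 3 was thus low in the hippocampus and high in the neocortex in most members. Both libraries belong to a litter of 8 libraries whose deviations sum to 0.

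Other genes followed the members closely over the 20 libraries. By correlation with the mean of the members' scaled deviations, the 10 nearest were Islr (r = 0.933), Col1a2 (0.903), F13a1 (0.903), Vstm4 (0.899), Spp1 (0.896), Colec12 (0.893), Aebp1 (0.885), Fibin (0.884), Slc6a20a (0.877) and Cdh1 (0.873). Islr and Col1a2 are fibroblast genes and F13a1 marks macrophages of the brain borders. None of them was called by genotype. Col1a2 had the largest difference of the 10 in the hippocampus (0.70 ± 0.20, adjusted p = 0.138) and Vstm4 the lowest adjusted p (0.28 ± 0.073, adjusted p = 0.111). A further list of 36 fibroblast genes, 35 of them tested, also leaned higher in the hippocampus of KQ mice, with 32 positive, a median of 0.174, 11 at an unadjusted p under 0.05 and 0 called (limma). In the neocortex 13 of these 35 were positive (median -0.0325). Of 12 fibroblast collagens 12 were positive in the hippocampus (median 0.308) and 11 in the neocortex (median 0.222), with 0 called in either (4 at an unadjusted p under 0.05 in each). By region in KQ mice 15 of the 35 were called higher in the hippocampus and 4 lower, among them Cemip (0.67), and lower Igfbp6 (-1.27) and Cd34 (-0.58). In WT mice 2 were called higher and 4 lower, and the same named genes were called in the same direction, Cemip at 0.75, Igfbp6 at -1.23 and Cd34 at -0.56. Of all 17863 genes tested, 3069 were called higher in the hippocampus and 3247 lower in KQ mice, and 2418 and 2623 in WT mice.

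Markers of the epithelium of the choroid plexus, which lies in the ventricle beside the hippocampus and whose stroma holds fibroblasts, moved with some of the members. All 18 markers tested had positive differences between KQ and WT mice in the hippocampus (median 1.03, 3 at an unadjusted p under 0.05, 0 called by limma), and all 18 were also positive for hippocampus minus neocortex in both genotypes. In KQ mice that difference ran from 0.94 to 3.63 (median 1.66) and 17 of 18 were called, against 17.2% of all genes called higher in the hippocampus. In WT mice it ran from 0.31 to 1.71 (median 0.658) and 0 were called, against 13.5% of all genes. In WT mice 2 of the 18 had an unadjusted p under 0.05 by limma, against 6936 of all 17863 genes. The difference between the genotypes in this respect passed for 0 of 18 (0 at an unadjusted p under 0.05). The mean of the list ran from 0.32 to 3.22 in the hippocampus KQ libraries and from -0.10 to 1.75 in the WT libraries, and from -0.73 to 1.48 and from -0.37 to 0.59 in the neocortex. It was highest in hippocampus KQ female 1 (3.22), the library that was also highest in Lum, Slc13a4 and Igf2, and lowest among the KQ libraries in female 2 (0.32), which is tied to neocortex KQ female 2 (1.48). Whether any marker was at 0 reads cannot be told from these values. Ependymal markers were positive in 8 of 8 in the hippocampus with a median of 0.0942, and macrophage markers in 7 of 7 with a median of 0.202, with 0 called in each (0 and 3 at an unadjusted p under 0.05 by limma). Endothelial markers were positive in 10 of 13 (median 0.102) and those of pericytes and smooth muscle in 11 of 13 (median 0.155), with 0 called in each (4 and 3 at an unadjusted p under 0.05 by limma). In the hippocampus 2650 of all 17863 genes had such a p by genotype. Red blood cell markers were positive in 3 of 5 (median 0.0105). The part of the cell types other than the choroid plexus in the differences of the members was not tested. For the choroid plexus the relation to the members is given below, and as a cause it was not tested.

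Within the hippocampus groups Lum varied with the choroid plexus level, and Fmod and its set had negative correlations that did not pass. In the 9 hippocampus libraries, deviations from the group means correlated for Lum with r = 0.895 (Spearman's rho 0.85, exact permutation p = 8.21e-04 and 0.00607, adjusted over 20 relations 0.00821 and 0.0405), and r was 0.744 without the 2 libraries farthest from the median choroid plexus level. For Slc13a4 r was 0.789 (rho 0.867, exact permutation p = 0.0138 and 0.00451, adjusted 0.0552 and 0.0405; 0.62 without the 2 farthest), and for Igf2 0.791 (rho 0.75, exact permutation p = 0.012 and 0.0255, adjusted 0.0552 and 0.102; 0.603 without them). For Slc6a13, Aldh1a2, Slc22a6 and Fmod r was -0.515 to -0.324 (lowest adjusted exact permutation p 0.327), for Ogn 0.077, for Dcn 0.471 and for Bmp7 0.549 (adjusted exact permutation p 0.897, 0.337 and 0.303). Without the 2 farthest libraries r was -0.661 to -0.348 for the set of Fmod, -0.23 for Ogn, -0.371 for Dcn and 0.255 for Bmp7. In the 11 neocortex libraries the relation passed for Igf2 (r = 0.857, rho 0.882, permutation p = 5.40e-04 and 7.10e-04, adjusted 0.00821 and 0.0142; 0.839 without the 2 farthest), and Dcn had r of 0.776 (rho 0.745, permutation p = 0.00705 and 0.0113, adjusted 0.047 and 0.0566; 0.706 without them). The other members had r of -0.1 to 0.686 there (lowest adjusted permutation p 0.0661). Without the 2 farthest neocortex libraries their r was 0.373 (Slc6a13) to 0.787 (Ogn), with Fmod at 0.581, against 0.0602 with all libraries. These p-values are approximate because of the ties between libraries.

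With the choroid plexus level as an added term, an alternative chosen after seeing the data, Lum differed by genotype in the hippocampus by 0.39 (adjusted p = 0.0735) and was no longer called. Slc13a4 was 0.68, Igf2 0.32, Dcn 0.26, Ogn 0.47 and Bmp7 0.41, all smaller than without the term, while Slc6a13 (0.48), Aldh1a2 (0.59), Slc22a6 (0.47) and Fmod (0.78) were larger than without it. All 10 members were positive and 0 were called (limma). By region in KQ mice Lum (0.57), Dcn (1.47) and Ogn (0.64) were still called (adjusted p = 9.62e-05, 9.16e-05 and 0.0343), and the calls for Slc13a4 (0.29, adjusted p = 0.466) and Igf2 (0.36, adjusted p = 0.302) ended. In WT mice Lum and Dcn were still called, and Bmp7 was called lower in the hippocampus (-0.32, adjusted p = 0.0399).

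**Figure D4:**
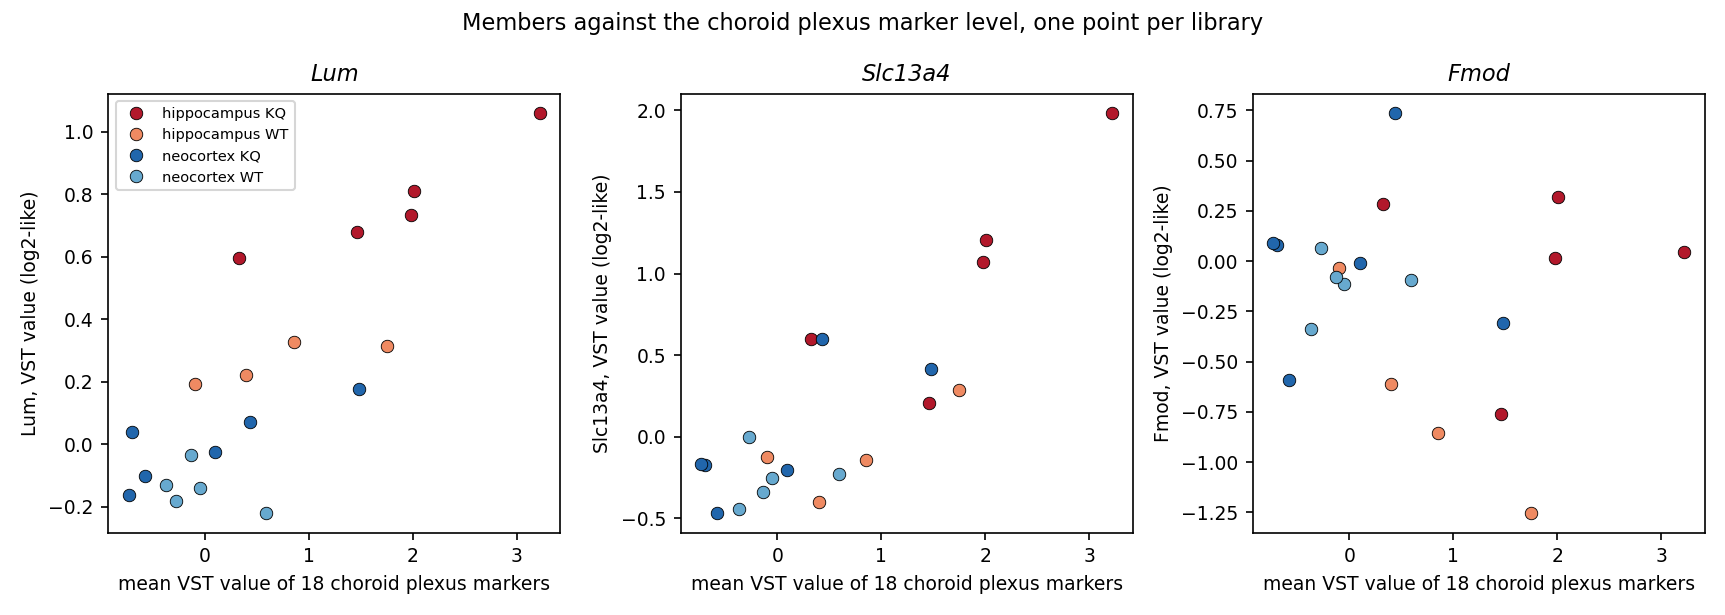
VST values of Lum, Slc13a4 and Fmod (vertical axes) against the mean VST value of 18 choroid plexus markers (horizontal axes), one point per library, coloured by group. Within each hippocampus group Lum tends to lie higher where the marker level is higher, up to KQ female 1 at 3.22, and Slc13a4 does so less regularly. Across groups this order fails: hippocampus WT male 1 (level 1.75) has Lum at 0.314, and KQ female 2 (level 0.324) has it at 0.597. Fmod shows no such order in the hippocampus.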

How the data were processed

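Per the study's methods and processing notes, reads were trimmed (cutadapt), mapped to mm10 (STAR 2.5.2b) and quantified (Salmon). From these estimates the authors made log2-like values by the variance-stabilizing transformation of DESeq2 1.34.0 in R 4.1.0, removed sex and litter from them with limma, and deposited the result. Genes at 0 in every library (4383), or tied in all 3 libraries of a region, sex and litter (2282), were left out. The 4 region-by-genotype groups of 20 libraries were fitted in 1 model with sex and litter as terms (limma 3.58.1, statmod 1.5.0, R 4.3.3), with Benjamini-Hochberg adjustment over 17863 genes and a threshold of 0.05, and 5 contrasts were taken. Fitting sex and litter again charges the degrees of freedom spent on their removal. The test was run on simulated data drawn with independent libraries, so that correlation between libraries of the same mouse was not covered. Permutations, sequences and plots used Python 3.11.15, numpy 2.4.6, pandas 2.3.3 and matplotlib 3.10.9. Depth is unknown, and all errors given are those of the fit or the SD over libraries.

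The labels give the groups, sex and litter. Libraries of the same number are not from the same animal across genotypes, so the numbers were not taken as pairs. Their deviations correlated by -0.604 to 0.117 (9 pairs, none best with its own number). This cannot decide on pairing, since the removal of sex and litter ties the deviations of libraries. Female libraries agree in genotype, number and litter across regions (6 pairs), which the labels allow but do not state to be the same mice. The deviations of these 6 pairs correlated by -1 to 0.722, with 1 best with its own. The hippocampus males agree in genotype and litter with neocortex males, in part under other numbers. Whether those are the same mice is not stated either. The fits take all libraries as independent except where a random effect is named, and that for the mouse covers females only. Libraries of a group differ in sex, number or litter, and p-values measure the spread between them. The members and the 16 gene lists were chosen with earlier results of these data known, and the grouping of members, the motifs and the choroid plexus term after seeing the values. The genes named are the members, the genes past the threshold in the lists (at most 3 a list and contrast), and the 10 most alike, with exceptions named. Alternatives were other covariates, the replicate block, no filter, median centring, robust eBayes, 1 region alone and the omission of each library.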

Additional observations from a re-analysis of the deposited data

Results flagged for a closer look

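Of 40 member and group combinations checked for a library far from the others, a test that chance alone passes in about 1 of 20, 1 stood out. Fmod in hippocampus KQ female 3 was -0.761, against 0.0149 to 0.318 in the other 4 KQ libraries, and the gap took up 0.719 of the range of the group. Aldh1a2 and Slc22a6 were also lowest in this library (-0.30 and -0.52). Without it the difference between KQ and WT mice in the hippocampus was called for 3 members, Lum, Slc13a4 and Bmp7, while Fmod was at 0.93 (adjusted p = 0.128) and was not called.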

How the results depend on the processing

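The higher KQ values in the hippocampus kept their direction in all 300 member values under the alternatives. The calls depended on the terms. With no sex and litter, with sex alone, or with litter as a random effect, 4 members were called there each time, against 1 as reported. These fits do not charge in full the degrees of freedom spent on removing sex and litter, so their p-values are too small. In the hippocampus 0 members were called with the replicate block, the mouse random effect, the hippocampus alone or the choroid plexus term. Omitting single libraries gave 0 to 3. Genes called there were 2077, 1584, 2114, 38 (replicate block), 0 (region alone) and 17 (choroid plexus term), and 8 to 137 without single libraries, against 69. In the neocortex they were 2381, 1812 and 2396, 7 (region alone), and 7 to 123 without single libraries, against 40. With no sex and litter, 7562 genes were called by region in WT mice, against 5041, and 69 for the difference of the genotype effect, against 0; the choroid plexus term left 3657 genes and 3 members by region in KQ mice, against 6316 and 5.

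Small values changed sign. In the neocortex Igf2 was -0.0787 (replicate block), -0.0544 (region alone) and -0.00462 (choroid plexus term), Slc22a6 -0.00459 (region alone) and Slc6a13 0.0107 (mouse random effect). By region in KQ mice Fmod was 0.0251 (replicate block) and 0.164 (choroid plexus term), and Slc22a6 -0.00766 (mouse random effect) and -0.00555 (median centring). By region in WT mice Slc6a13 was 0.0106 and Aldh1a2 0.0913 (replicate block), Aldh1a2 0.0237 (mouse random effect) and 0.0572, and Slc13a4 -0.15 (both with the choroid plexus term). Without single libraries the neocortex values ran from -0.131 to 0.208 (Ogn), -0.163 to 0.137 (Slc6a13), -0.00447 to 0.161 (Bmp7), -0.234 to 0.231 (Igf2), -0.0778 to 0.236 (Aldh1a2), -0.158 to 0.198 (Slc22a6) and -0.183 to 0.356 (Fmod), those by region in KQ mice from -0.103 to 0.244 (Slc22a6) and -0.178 to 0.349 (Fmod), and those in WT mice from -0.0124 to 0.296 (Slc13a4), -0.276 to 0.155 (Slc6a13) and -0.154 to 0.187 (Aldh1a2). Of 1480 member values in all alternatives 1400 kept direction and side of the threshold. The cause of the changes was not tested. Beside the call of Lum in the hippocampus, the replicate block changed no call of a member.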
